A study of Mus musculus with 2 samples.

Results

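Among dissociated cells from the proximal and periurethral region of the mouse prostate, 223 barcodes carried the surface gene Ly6d together with a marker of urothelial or stratified epithelium. They are called Ly6d-rich epithelial barcodes here, or members. They were chosen by UMI counts (unique molecular identifiers, each standing for 1 captured RNA molecule), in 1 of the 2 libraries of the series. A member had at least 500 genes, at most 10% mitochondrial UMIs, at least 3 UMIs of Ly6d, at least 1 UMI of Aqp3, Upk1b, Upk3a or Krt13, and fewer than 10 UMIs of the collagen genes Col1a1, Col1a2 and Col3a1 together. The series held 6565 deposited barcodes. The proximal library had 4344 of them, 3709 after the filters on genes and mitochondrial UMIs, and the ventral lobe library had 2221, 1995 after the same filters. The libraries shared 0 barcodes. The rule was run on all kept proximal barcodes, those of non-epithelial cells included. Clustering placed 1 member in a cluster led by Cd74 and other macrophage genes and 1 in a cluster led by the endothelial genes Flt1 and Emcn.

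Both libraries came from prostates of male C57BL6 mice, described as wild type, with no treatment named, and both were dissociated with papain and TrypLE. Age and the number of animals in each library are not given in the sources used here. The proximal library was made with version 3 and the ventral library with version 2 of the 10x Genomics kit, so a difference of region cannot be told apart from one of kit. In the ventral library 1 barcode met the rule, with 5 UMIs of Ly6d, 2 of Upk1b and 4 of Psca among 40664 UMIs. Every comparison below is between barcodes of the proximal library, which is 1 sample, and therefore none has a test. Levels are counts per 1000000 of a group's summed UMIs (CPM), with exact Poisson intervals at 95% that cover counting error only. Members held 4086 to 133144 UMIs each, with a median of 21254, against a median of 15266 in all kept proximal barcodes.

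The urothelium that lines the bladder and urethra is layered. Its surface cells cover themselves with plaques of uroplakins, while basal cells carry Krt5 and water channels of the aquaporin family. Near the urethra, prostatic ducts hold luminal cells rich in Psca, a small anchored surface protein of the Ly6 family, and a basal layer with Krt5 and Krt14. Ly6d is another anchored protein of that family, found in stratified epithelia and also known from luminal cells of the mouse prostate that withstand castration. Aqp3 is a water and glycerol channel of stratified epithelia, Upk1b and Upk3a are uroplakins, and Krt13 is a keratin of unkeratinized stratified epithelium.

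In the RefSeq annotation of GRCm38.p6, the mm10 assembly, Ly6d lies at chr15:74762056-74763567 and Psca at chr15:74714839-74717065, a span of 48.7 kb with 7 protein-coding genes, both included. The 5 genes between them were low in members: Lypd2 at 25.4 CPM, Them6 at 10.0, Lynx1 at 7.54, Slurp1 at 1.85 and Slurp2 at 0.308. Psca, by contrast, stood at 2661 CPM in members, and Ly6d belonged to the rule. The other rule genes lie elsewhere: Aqp3 at chr4:41092724-41098183, Krt13 at chr11:100117327-100121566, Upk1b at chr16:38773182-38800203 and Upk3a at chr15:85017141-85022560.

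The label of periurethral epithelium rests on the rule, by which every member had Ly6d while Upk1b, Aqp3, Krt13 and Upk3a were alternatives. Of the 223 members, 182 had a UMI of Upk1b, 89 of Aqp3, 45 of Krt13 and 7 of Upk3a. Upk1b alone admitted 99 members, Aqp3 alone 25, Krt13 alone 15 and Upk3a alone 0. These values chose the members, so they are a description and support nothing.

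The members were set beside 2 kinds of proximal barcodes that are no members. Psca-rich barcodes had at least 10 UMIs of Psca and fewer than 5 of Krt5 plus Krt14, and Krt5/Krt14-rich barcodes the reverse. Both had the same collagen limit and fewer than 3 UMIs of Ptprc and of Pecam1, which left 330 and 534 barcodes. Pecam1, a gene best known from endothelium, turned out to be common in these epithelial barcodes, and its limit removed 702 Psca-rich and 146 Krt5/Krt14-rich ones. Groups without that limit, called wider here, held 1032 and 680 barcodes. Ly6d reached 3 UMIs in 17 of the wider Psca-rich and 75 of the wider Krt5/Krt14-rich barcodes, which lacked the other rule genes.

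Ly6d stood at 1146 CPM (1121 to 1173) in members, 42.4 in Psca-rich and 94.8 in Krt5/Krt14-rich barcodes. Upk1b stood at 128 CPM in members and 115 in Psca-rich barcodes, against 21.1 in Krt5/Krt14-rich ones. Aqp3 stood at 78.8 CPM in members, 3.83 in Psca-rich and 59.4 in Krt5/Krt14-rich barcodes. Upk1b and Aqp3 were each near the level of 1 comparison group, while Ly6d was far from both. Krt13 was low everywhere, with 10.0 CPM in members, 4.95 in Psca-rich and 11.6 in Krt5/Krt14-rich barcodes. Upk3a was also far from both, at 46.9 CPM against 0.479 and 0, and 1.70 in wider Psca-rich barcodes. It was found in only 7 members, and 70.2% of its 305 UMIs lay in 1 barcode. All of these genes chose the members, so their levels are a description. The gap of Ly6d was set by the rule, since comparison barcodes with 3 or more Ly6d UMIs lacked the other rule genes.

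**Figure D1:**
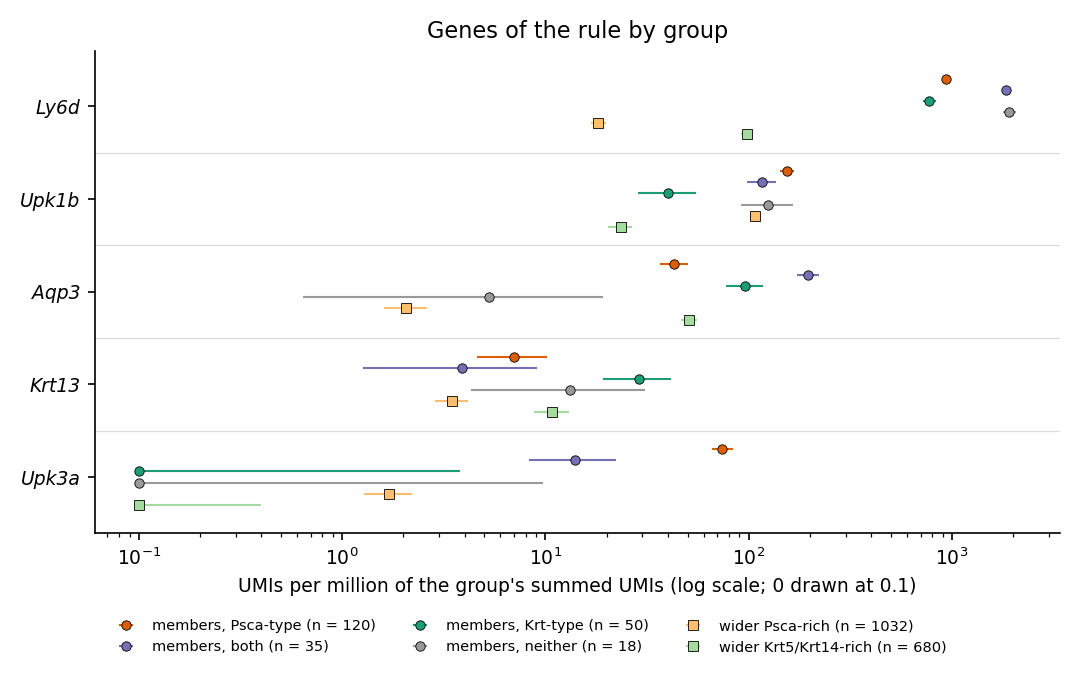
CPM of the 5 rule genes (horizontal log axis) in the 4 sets of members (circles) and the 2 wider comparison groups (squares), with exact Poisson intervals for counting error. Ly6d lies at 773 to 1916 CPM in the member sets and at 18.2 and 97.8 in the wider groups, a gap set by the rule. Of the wider groups, Psca-rich barcodes have more Upk1b and Krt5/Krt14-rich ones more Aqp3.

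The members were not of 1 kind. By the cuts that define the comparison groups, 120 of 223 were Psca-type, 53.8% (47.0% to 60.5%, exact binomial interval), and 50 were Krt-type, 22.4% (17.1% to 28.5%). Another 35, 15.7% (11.2% to 21.1%), passed both cuts, and 18, 8.07% (4.85% to 12.5%), passed neither. Near the cuts, 16 members had 7 to 12 UMIs of Psca and 10 had 3 to 6 of Krt5 plus Krt14.

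Membership was unevenly spread over these types. Among kept proximal barcodes below the collagen limit, members made up 10.4% (8.70% to 12.3%) of 1154 Psca-type and 6.85% (5.13% to 8.93%) of 730 Krt-type barcodes. They made up 47.3% (35.6% to 59.3%) of the 74 barcodes that passed both cuts and 1.29% of the 1392 that passed neither. Members with both held a median of 33231 UMIs, against 23251 in Psca-type and 15810.5 in Krt-type members, and other barcodes with both held 26369. No doublet caller was run and doublets were not removed. With the cuts set per 10000 UMIs instead, members with both made up 8.07% of members in place of 15.7%, and with lower cuts 22.0%. The part of doublets was not tested.

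**Figure D2:**
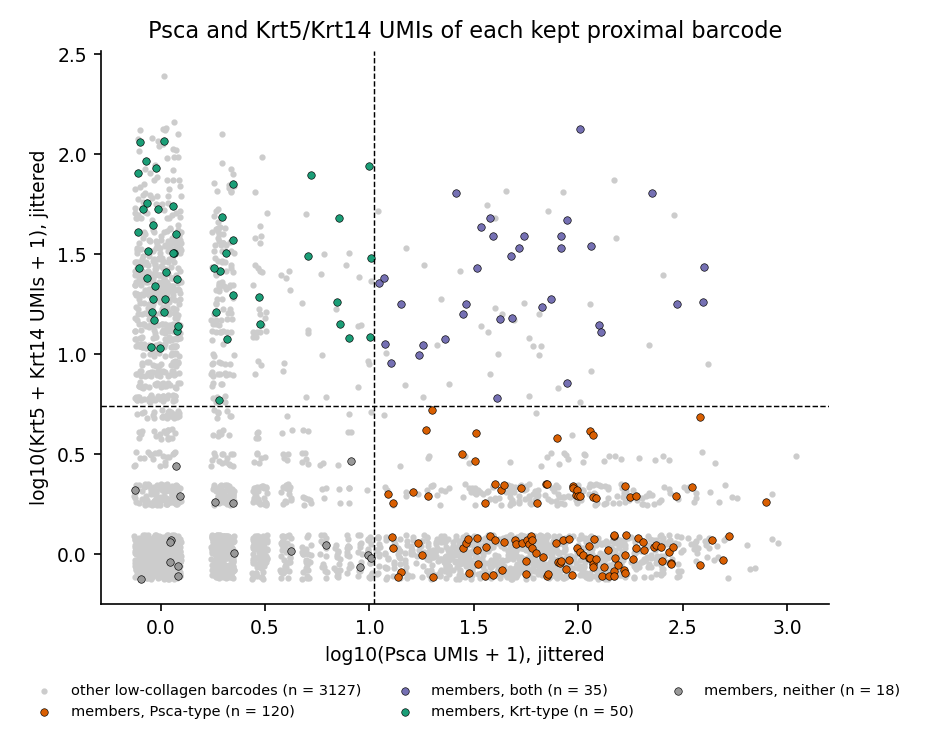
Each point is 1 kept proximal barcode below the collagen limit, by its UMIs of Psca (horizontal) and of Krt5 plus Krt14 (vertical), both as log10 of the count plus 1 with slight jitter. Members are coloured by set (120 Psca-type, 35 both, 50 Krt-type, 18 neither) and the dashed lines mark the cuts of 10 and 5 UMIs.

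Against the Psca-rich barcodes as a whole, 6 of 13 counted basal genes were higher in members and 0 lower. The cuts bear on this count, because the Psca-rich group admits few Krt5 and Krt14 UMIs while members with both and Krt-type members are over that limit. In Psca-type members against wider Psca-rich barcodes 1 of 9 basal genes was higher, with a median of -0.10 and summed levels of 1275 and 1276 CPM. Of 5744 genes counted (at least 20 CPM in either group), 124, 2.16%, were at least 2-fold higher in members and 36, 0.627%, at least 2-fold lower, by ratios of CPM plus 10. Of the 223 members, 135 had 3 or more Pecam1 UMIs, which the Psca-rich group excludes, and without that limit the counts were 134 and 69. Leading the higher side, among genes seen in at least 25% of members with at most 20% of their UMIs in 1, were Apoe, at 1224 CPM against 25.1, the lectin Lgals7, at 218 against 4.31, Dcn, a matrix gene on the fibroblast list, at 251 against 20.4, and Col17a1, a collagen that anchors basal cells, at 70.6 against 3.83. Dcn stood at 1430 CPM in Krt-type members, 1473 in Krt5/Krt14-rich barcodes and 7.76 in Psca-type members. The fibroblast list as a whole summed to 650 CPM in members and 307 in Psca-rich barcodes. In an alternative called without other cell types, members with 3 or more UMIs of Ptprc, of Pecam1 or of the 3 collagen genes together were left out. There 207 genes were higher and 59 lower. Dcn and the rest of the fibroblast list were not used to leave members out. In members, Apoe had a median of 1 UMI in a barcode and a highest value of 775, and 54 members had 10 or more. Of the lower genes, Bex1 stood at 39.2 CPM against 124, the water channel Aqp5 at 36.0 against 104, and the claudin Cldn10 at 106 against 261.

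Against the Krt5/Krt14-rich barcodes the picture was turned round. Of 5959 genes, 397, 6.66%, were at least 2-fold higher in members and 284, 4.77%, lower. The higher side held Upk1a (401 CPM against 7.60), Krt4 (496 against 20.1) and Cxcl17, a chemokine of mucosal epithelia (200 against 2.72). The cuts bear on these counts too. The Krt5/Krt14-rich group admits fewer than 10 Psca UMIs, while Psca-type members and members with both have at least that many. Of the 50 Krt-type members, 13 had a UMI of Upk1a and 2 of Cxcl17. On the lower side stood Apoe, at 1224 against 5693, and Krt17, at 77.1 against 518. In all, 27 genes were at least 2-fold higher in members than in both groups. Of those seen in at least 25% of members with at most 20% of their UMIs in 1, the 12 with the largest smaller ratio were Areg, Gstm1, Tm4sf1, Ociad2, Ivl, Itgam, Slc14a1, Nccrp1, Mal, Scin, Grhl3 and Scel. Outside that limit Prol1 had a larger ratio than Areg, at 298 CPM against 34.0 and 15.9, but 47.4% of its UMIs lay in 1 member. Of the 12, Itgam, an integrin chain best known from myeloid cells, stood at 64.3 CPM against 19.9 in Psca-rich barcodes but 99.7 in the wider ones. Scin, an actin-severing protein, likewise stood at 73.7 against 20.7 and 76.1, so both depended on the Pecam1 limit. Because the members hold several types, further comparisons were made within a type. There, Psca-type members were set beside wider Psca-rich barcodes and Krt-type members beside wider Krt5/Krt14-rich ones.

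Within the types the comparison groups were the wider ones, so the counts are not set beside those above. Psca-type members had 58 of 5716 genes at least 2-fold higher, 1.01%, and 67 at least 2-fold lower, 1.17%. Krt-type members had 47 of 5723 genes higher, 0.821%, and 43 lower, 0.751%. Many of these counts rested on single barcodes. When each gene was recomputed in both groups without the barcode holding most of its UMIs, 35 of the 58 and 65 of the 67 remained past 2-fold in the Psca-type, but 11 of the 47 and 23 of the 43 in the Krt-type. In the Krt-type the 11 genes were Ankrd22, Areg, Dapl1, Foxq1, Gsta4, Ivl, Krt19, Krt4, Slc14a1, Upp1 and Wfdc2. The differences also depended on which barcodes of the wider groups were used. The kept proximal barcodes were clustered, as described further on, and clusters 1 and 5 held most Psca-type members and clusters 7 and 12 most Krt-type members. With both groups limited to those clusters, 11 of the 58 and 4 of the 67 remained past 2-fold in the Psca-type. In the Krt-type 39 of the 47 and 8 of the 43 did. The clusters were built from the same genes, and Clca1, Cxcl17, Krt4 and Areg are among the leading genes of clusters 1 and 5. Choosing barcodes by cluster can even out such genes, so a loss within clusters does not show that a difference is absent.

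The 2 comparisons use separate barcodes, and 7 genes were at least 2-fold higher in members in both: Areg, Ivl, Krt4, Mal, Scel, Srgap1 and Tm4sf1. That is 12.1% of the 58 genes and 14.9% of the 47. Without the top barcode of each gene 3 of the 7 remained in both, which were Areg, Ivl and Krt4. Areg encodes amphiregulin, a ligand of the EGF receptor. Ivl encodes involucrin and Scel sciellin, both precursors of the cornified envelope of stratified epithelium. Krt4 is a keratin of unkeratinized stratified and proximal luminal epithelium, Mal a membrane protein of apical transport, and Tm4sf1 a tetraspanin-like surface protein.

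**Figure D3:**
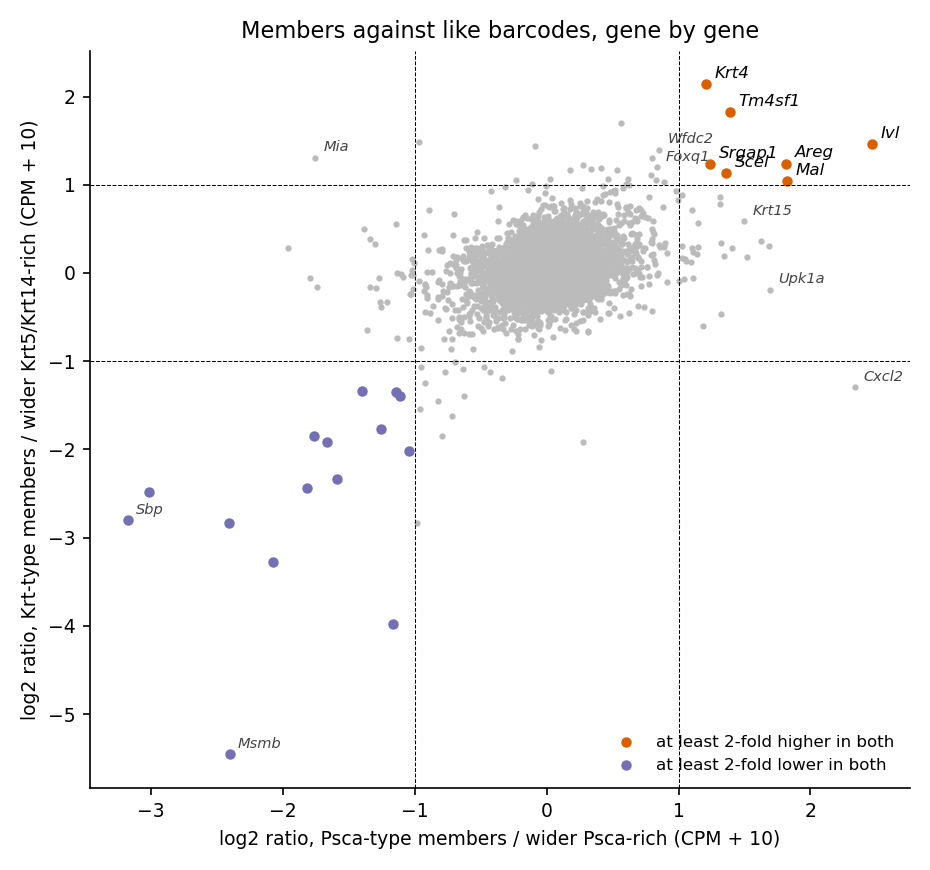
Each point is 1 of the 4935 genes counted in both comparisons, by its log2 ratio of CPM plus 10 in Psca-type members over wider Psca-rich barcodes (horizontal) and in Krt-type members over wider Krt5/Krt14-rich barcodes (vertical), with dashed lines at 2-fold. The 7 genes at the upper right are higher in members in both, and the 15 at the lower left, with Sbp and Msmb among them, are lower in both.

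Promoter sequences are shown for 3 of these shared genes, the envelope genes Ivl and Scel and the ligand Areg, because each holds a TATA box or the letters of the AP-1 motif, which Fos and Jun factors bind. They are the 250 bases before the transcription start, on the gene's strand, from RefSeq on GRCm38.p6. Capitals mark the TATA box, searched as TATAAA, and the AP-1 letters, with positions counted back from the start. The TATA boxes begin at base -31 in Areg and base -29 in Ivl, and the AP-1 letters at base -116 in Ivl and base -36 in Scel.
Areg, chr5:91139349-91139598, plus strand: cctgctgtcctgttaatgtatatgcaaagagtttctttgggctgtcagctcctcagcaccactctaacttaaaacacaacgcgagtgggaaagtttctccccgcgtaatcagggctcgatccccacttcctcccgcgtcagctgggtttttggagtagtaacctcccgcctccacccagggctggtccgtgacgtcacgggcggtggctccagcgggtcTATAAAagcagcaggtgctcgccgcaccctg
Ivl, chr3:92573736-92573985, minus strand: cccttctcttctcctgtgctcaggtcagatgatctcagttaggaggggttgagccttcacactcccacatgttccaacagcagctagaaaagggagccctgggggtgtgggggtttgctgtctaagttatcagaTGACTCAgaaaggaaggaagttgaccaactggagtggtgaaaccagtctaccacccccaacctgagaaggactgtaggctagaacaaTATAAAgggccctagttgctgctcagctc
Scel, chr14:103513091-103513340, plus strand: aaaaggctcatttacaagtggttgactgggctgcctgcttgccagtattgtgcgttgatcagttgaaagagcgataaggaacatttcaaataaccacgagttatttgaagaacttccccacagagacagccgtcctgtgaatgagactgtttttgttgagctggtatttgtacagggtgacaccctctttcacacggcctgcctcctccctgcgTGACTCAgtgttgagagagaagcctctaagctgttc

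Promoters were found for 10 of the 12 genes that led the members over both the Psca-rich and the Krt5/Krt14-rich barcodes, among them these 3. Nccrp1 had no entry and Slc14a1 was left out. Searching both strands, TATAAA stood in 3 of the 10, against 12.4% of all 32851 promoters of the same length, and the AP-1 motif, searched as TGANTCA, in 2, against 6.75%. The core letters CCGGTT of the GRHL family, to which the epithelial factor Grhl3 belongs, stood in 0 of the 10 and 5.62% of all. AGATAA, the GATA motif, stood in 0 and 9.99%, and CACCC, bound by KLF factors, in 7 and 52.0%. A match is a description of letters, and 10 promoters are too few to set against these shares.

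Areg was found in 167 of 223 members, with a median of 4 UMIs and a highest value of 247. It stood at 578 CPM (555 to 603) in Psca-type members against 157 (153 to 161) in wider Psca-rich barcodes, a log2 ratio of 1.82. In Krt-type members it stood at 103 CPM (83.7 to 125) against 37.7 (33.9 to 41.9), a log2 ratio of 1.24. The members' level was thus higher in both types, and the Psca-type level the higher of the 2. After each barcode was thinned to 2000 UMIs, Areg was seen in 48.3% of Psca-type members and 23.7% of wider Psca-rich barcodes. In Krt-type members it was seen in 20.0%, against 5.60% of wider Krt5/Krt14-rich barcodes. Among 50 macrophage barcodes, a type that can express Areg itself, the share was 6.0% (1.25% to 16.5%), with a median depth of 11641.5 UMIs. The part of free RNA in these shares was not tested. Unthinned, Areg was seen in 90.8% of Psca-type and 36.0% of Krt-type members, against 74.2% and 17.6% of the wider groups and 8 of 50 macrophage barcodes.

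Ivl was concentrated in few members. It was found in 57 of 223, in 27 of them with at least 10 UMIs, and reached 162 UMIs in 1 barcode. Psca-type members stood at 117 CPM against 12.9, a log2 ratio of 2.47 that was 2.49 without the top barcodes. The 5 highest of the 120 Psca-type members held 73.7% of their Ivl UMIs, so the level describes those few. Krt-type members stood at 38.1 CPM against 7.44, from 37 UMIs, of which 6 barcodes held all. Scel was more evenly spread in the Psca-type, in 65.0% of members, at 65.7 CPM against 19.5. In the Krt-type it was under 2-fold without the top barcodes, and within clusters 7 and 12 35.1% of its 37 UMIs lay in 1 member.

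Krt4 stood at 624 CPM (600 to 650) in Psca-type members against 264 (259 to 270), a log2 ratio of 1.21. In Krt-type members it stood at 123 CPM (102 to 148) against 20.3 (17.5 to 23.4), a log2 ratio of 2.14. Of the Krt-type members 18 of 50 had a UMI of Krt4, and the highest had 17. Thinned, the shares were 14% (5.82% to 26.7%) and 2.65% (1.58% to 4.16%), and unthinned 36.0% and 12.4%. Macrophage barcodes had it thinned in 0 of 50, which allows a share of up to 6.0%. Mal stood at 307 CPM against 79.6 in the Psca-type and 21.6 against 5.39 in the Krt-type, where 21 UMIs came from 11 barcodes. Tm4sf1 in Krt-type members, 360 CPM against 94.7, was mostly 1 barcode with 240 UMIs, and without the top barcodes its log2 ratio was 0.40. Srgap1, named after its values were seen, went from 1.23 to 0.64 in the same way.

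**Figure D4:**
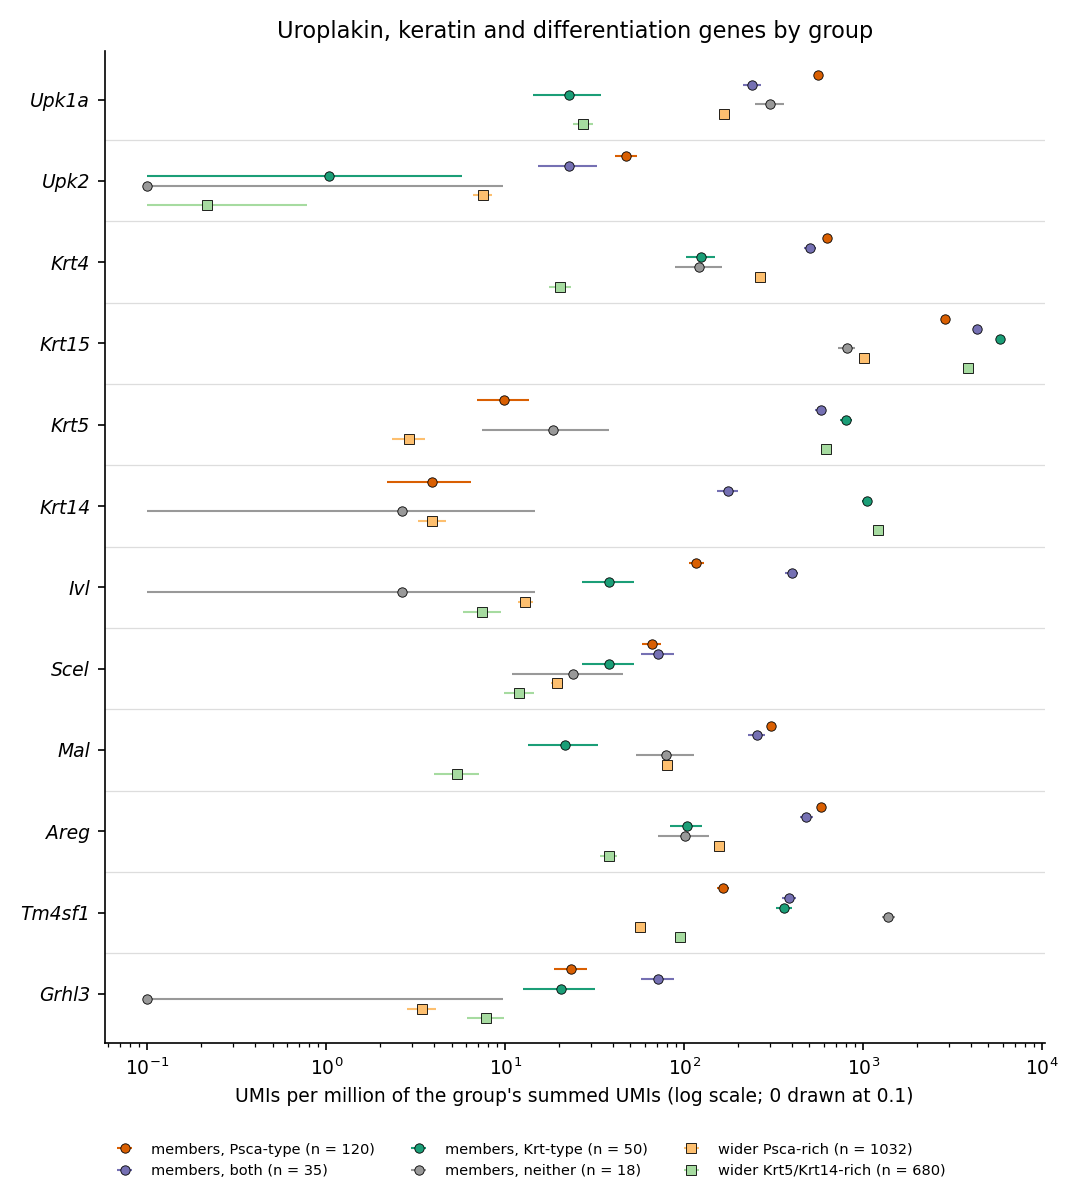
CPM (horizontal log axis) of 12 uroplakin, keratin and differentiation genes in the 4 sets of members (circles) and the wider comparison groups (squares), with exact Poisson intervals for counting error. In Psca-type members Upk1a (560 CPM), Krt4 (624) and Krt15 (2874) lie right of the wider Psca-rich barcodes (167, 264 and 1010), and members with both have the highest Ivl (398) and Grhl3 (71.0).

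Levels of the uroplakins Upk1a, Upk2 and Upk3b, none of them in the rule, were highest in the Psca-type among the 4 sets of members. Upk1a, which pairs with Upk2 in the plaque, was found in 116 of 120 Psca-type members, with a median of 13 UMIs and a highest value of 227, against a median of 3 in wider Psca-rich barcodes. Its level was 560 CPM (537 to 585) against 167 (162 to 171), a log2 ratio of 1.69, and of 0.82 within clusters 1 and 5. Thinned, it was seen in 65.0% of Psca-type members, 25.9% of wider Psca-rich barcodes and 0 of 50 macrophage barcodes, against 96.7%, 80.0% and 4.0% unthinned. In Krt-type members Upk1a stood at 22.6 CPM against 27.2, of which 52.8% lay in 1 barcode of the wider Krt5/Krt14-rich group. Upk2 stood at 47.3 CPM against 7.46 in the Psca-type, and 44.3% of its 183 UMIs came from 1 member. Without the top barcodes it stood at 26.7 against 7.35.

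Barcodes with many UMIs of the uroplakins outside the rule were more frequent among Psca-type members. At least 20 UMIs of Upk1a, Upk2 and Upk3b together were found in 35 of 120, 29.2% (21.2% to 38.2%), and in 7 of 35 members with both. In the wider Psca-rich barcodes it was 57 of 1032, 5.52% (4.21% to 7.10%), at a similar median depth of 21407.5 UMIs against 23251. Of the 50 Krt-type members, 0 reached 20. Upk1b, another uroplakin, belonged to the rule and alone admitted 99 members, so members were chosen in part for a uroplakin. These shares were not taken within clusters. Upk3a belonged to the rule too. The 7 members with it had 214, 60, 18, 6, 5, 1 and 1 UMIs, and the first of them also had 227 of Upk1a, 81 of Upk2 and 790 of Psca. Another 19 kept barcodes with Upk3a were no members. Krt20, the keratin of umbrella cells, had 6 UMIs in all members together.

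Of the list of 10 further urothelial genes, 6 were counted in the Psca-type comparison, 4 of them at least 2-fold higher and 0 lower, with a median log2 ratio of 1.44. In the Krt-type 4 of 5 counted genes were higher and 0 lower, with a median of 1.44. The medians over all genes counted were 0.01 and 0.07. Of all genes counted, 1.01% were at least 2-fold higher in the Psca-type and 0.821% in the Krt-type, and 1.17% and 0.751% lower. All gene lists were chosen with earlier results of these data known, so their counts are a description. Within clusters 1 and 5, 2 of the 4 in the Psca-type remained past 2-fold, Upk2 and Ivl. The 4 in the Krt-type were not uroplakins: the list also holds Ivl, Slc14a1, Krt7 and Krt19. Slc14a1, a urea transporter of urothelium, stood at 30.9 CPM against 4.96 in the Krt-type and 19.4 against 1.19 in the Psca-type. Snx31, a sorting protein of uroplakins, stood at 45.0 against 14.3 in the Psca-type and 7.2 against 9.92 in the Krt-type. Pparg, a nuclear receptor of urothelial differentiation, stood at 49.1 against 25.7 in the Psca-type.

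Several keratins were looked at one by one. Krt15, a keratin of basal and proximal cells, was found in all 120 Psca-type members, with a median of 73 UMIs, against a median of 16 in wider Psca-rich barcodes. Its level was 2874 CPM against 1010, while Krt5 (9.83 CPM) and Krt14 (3.88) were held low in the Psca-type by its cut. Krt-type members had 5799 CPM of Krt15 against 3860, and 15.3% of it came from 1 barcode. They also had more of the simple keratins, with Krt8 at 1533 CPM against 756, Krt19 at 1033 against 375 and Krt7 at 318 against 147. Without the top barcodes the log2 ratios of Krt7 and Krt8 were 0.96 and 0.88, just under 2-fold. Krt18, the usual partner of Krt8, stood at 756 against 786.

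Among stratified squamous genes, 2 of 11 counted were at least 2-fold higher in the Psca-type and 0 lower, with a median of 0.79. In the Krt-type 5 of 14 were higher and 0 lower, with a median of 0.84. Those in the Psca-type were Krt4 and Krt15, and Krt4, Lypd3, Gsta4, S100a14 and Dsg3 made up those in the Krt-type. Without the top barcodes 2 of these 5, Krt4 and Gsta4, remained past 2-fold. Within clusters neither of those in the Psca-type remained, and 4 of the 5 in the Krt-type did, all but Lypd3. Krt6a, a keratin of stratified and wounded epithelium, stood at 120 CPM against 55.4 in the Psca-type and 111 against 58.1 in the Krt-type, both under 2-fold. The desmosomal cadherin Dsg3 stood at 39.1 CPM against 7.33 in the Krt-type, but 76.3% of its UMIs lay in 1 member. The envelope gene Sprr3 had 0 of the members' 6499869 UMIs, which allows up to 3.

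Basal genes were near level in Krt-type members. Of 15 counted, 0 were 2-fold higher or lower, with a median of 0.16. Trp63, the basal master factor, stood at 47.3 CPM (34.6 to 63.1) against 67.2 (62.0 to 72.7). Apoe stood at 7111 against 5704, Lgals7 at 1163 against 1192, and Egfr at 236 against 224. Scpep1, a carboxypeptidase, was lower at 59.6 CPM against 203. In these genes the 50 Krt-type members stood within 2-fold of other Krt5/Krt14-rich barcodes, except for Scpep1, which is not on the basal list.

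Proximal luminal genes were mixed in the Psca-type. Of 18 counted, 3 were at least 2-fold higher and 2 lower, with a median of 0.01. The higher ones were Krt4, Ltf and Basp1 and the lower ones Clu and Cldn10, of which Basp1 alone remained past 2-fold within clusters 1 and 5. Wfdc2, a secreted antiprotease, stood at 1444 CPM against 794 and Psca itself, used for the cut, at 3701 against 3039. Clu (clusterin), a secreted chaperone, stood at 1893 CPM against 4195 and Cldn10 at 120 against 333. Clca1, a chloride channel regulator outside the list, stood at 161 CPM against 63.8. Within clusters 1 and 5, which it leads, the log2 ratio was -0.06. In the Krt-type 6 of 13 were higher and 1 lower, with a median of 0.56. The higher ones were Krt4, Krt7, Krt8, Krt19, Gsdmc2 and Wfdc2, the last at 370 CPM against 134, and the lower one was Cldn10. Of the 6, Krt4, Krt19 and Wfdc2 remained past 2-fold within clusters 7 and 12, and the same 3 without the top barcodes. Cldn10 remained without the top barcodes but not within clusters.

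Lower still in Psca-type members were Sbspon, a matrix protein (46.8 CPM against 211), Gas6, a ligand of TAM receptors (35.2 against 147), Bex1 (45.8 against 147), Aqp5 (45.5 against 139) and Mia (31.3 against 130). Within clusters 1 and 5 Gas6 and Bex1 remained past 2-fold, but Sbspon stood at 38.5 CPM against 61.4, Aqp5 at 38.5 against 52.0 and Mia at 24.8 against 42.0. Cluster 2, with Aqp5, Sbspon and Clu among its leading genes, held 260 of the wider Psca-rich barcodes and 5 members. Over all barcodes 79.4% of the wider Psca-rich barcodes had a UMI of Sbspon, against 46.7% of Psca-type members. On the higher side stood the glutathione transferase Gstm1 (395 CPM against 116), Ociad2 (37.8 against 4.14), Nccrp1 (30.3 against 2.68), the growth factor binding gene Igfbp3 (140 against 49.0), the cyclin Ccnd2 (112 against 32.7) and Cdc42ep3 (175 against 60.0). Within clusters 1 and 5 the first 3 of these remained past 2-fold, while Igfbp3 (log2 ratio 0.66), Ccnd2 (0.90) and Cdc42ep3 (0.94) did not. Nccrp1 had a UMI in 38.3% of Psca-type members and 5.33% of wider Psca-rich barcodes, at similar depth.

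Genes of distal secretion had lower pooled levels in members of both types, with much of the comparison level in single barcodes, and in the Psca-type some of them turned round within clusters. Of 11 counted in the Psca-type, 0 were higher and 7 lower, with a median of -1.05, and in the Krt-type 0 of 12 were higher and 9 lower, with a median of -1.71. Within clusters 0 of the 7 and 1 of the 9, Defb50, remained past 2-fold. Sbp, the spermine-binding protein of the ventral lobe, had a UMI in every member and stood at 732 CPM in the Psca-type and 834 in the Krt-type. In the wider groups it stood at 6704 and 5870, but 1 barcode held 29.7% of the first and 82.7% of the second. Sbp and Spink1 were also found in nearly all barcodes of all groups, and the part of free RNA in these counts was not tested. Of the 15 genes at least 2-fold lower in both types, 22.4% of the 67 and 34.9% of the 43, 11 remained without the top barcodes, Msmb and Defb50 among them. In the Psca-type both turned round within clusters 1 and 5, where Defb50 stood at 878 CPM against 198 and Msmb at 214 against 71.9, with 74.3% and 64.2% of the members' UMIs in 1 barcode. Over single barcodes their medians were level, at 4.5 UMIs in Psca-type members and 4 in wider Psca-rich barcodes for Defb50 and 2 in each for Msmb.

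Ligands and receptors differed little beyond Areg. Of 19 counted in the Psca-type, 1 was at least 2-fold higher and 0 lower, and in the Krt-type 1 of 29 was higher and 1 lower, with medians of 0.22 and 0.04. Areg was the higher one in both, and Fst, an activin antagonist, the lower one. Other EGF receptor ligands were near level: Hbegf at 1363 CPM against 1502 and Tgfa at 29.0 against 23.4 in the Psca-type. The Notch ligand Jag1 stood at 19.7 CPM against 6.76 in the Psca-type, a log2 ratio of 0.82.

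Transcription factors were mostly level. Of 28 counted in the Psca-type, 4 were at least 2-fold higher and 1 lower, and of 29 in the Krt-type 1 was higher and 1 lower, with medians of 0.16 and 0.08. Those in the Psca-type were Grhl3, Meis2, Ovol1 and Sox4, with Hoxb13 lower, and the higher one in the Krt-type was Foxq1. Without the top barcodes Grhl3 alone of the 4 remained past 2-fold in the Psca-type, while Hoxb13 and Foxq1 remained in their comparisons. Within clusters Foxq1 remained in the Krt-type, but in the Psca-type 0 of the 5 did, with Grhl3 at a log2 ratio of 0.71 and Hoxb13 at -0.36. Grhl3, a factor of urothelial and epidermal surface differentiation, stood at 23.3 CPM (18.7 to 28.6) against 3.41 (2.81 to 4.10) in the Psca-type. In the Krt-type it stood at 20.6 (12.6 to 31.8) against 7.76 (6.07 to 9.78), a log2 ratio of 0.78. The homeobox gene Meis2 stood at 212 CPM against 99.1 and Ovol1 at 55.1 against 22.0 in the Psca-type, and the homeobox gene Hoxb13 at 22.2 against 56.6. The forkhead factor Foxq1 stood at 340 against 143 in the Krt-type. Gata3 was near level in both types, at 93.9 CPM against 77.1 in the Psca-type and 98.7 against 82.7 in the Krt-type, as was Klf5, at 672 against 595 and 577 against 433. Of the cell cycle list, 0 of 2 counted were past 2-fold in the Psca-type and 2 of 5, Cenpf and Ube2c, were higher in the Krt-type, where neither remained past 2-fold without the top barcodes. Within clusters 7 and 12, 93.5% of the members' Cenpf UMIs and 85.7% of those of Ube2c lay in 1 barcode. All 7 UMIs of Mki67, a marker of dividing cells, lay in 1 of the Krt-type members.

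Some defence and detoxification genes were higher in the Psca-type. Of 12 counted antibacterial and mucosal genes 5 were higher and 0 lower, with a median of 0.73, and of 11 detoxification genes 3 were higher and 0 lower, with a median of 0.60. Within clusters 1 and 5, 1 of these 5, Mal, and 2 of the 3, Gstm1 and Adh7, remained past 2-fold. Cxcl17, a leading gene of cluster 1, stood at 236 CPM against 110 but was level within clusters 1 and 5 (log2 ratio -0.07). Ltf (lactoferrin) stood at 22.5 against 5.97, with 23.0% of its UMIs in 1 barcode. Cxcl2, a neutrophil chemokine, stood at 255 CPM against 42.5 in the Psca-type, with 43.4% of its UMIs in 1 barcode and a log2 ratio of 0.32 within clusters 1 and 5, and at 26.7 against 79.9 in the Krt-type. The aldehyde dehydrogenase Aldh3a1 stood at 24.3 CPM against 3.77 (0.71 within those clusters), and Adh7, an alcohol dehydrogenase of upper digestive and stratified epithelium, at 20.7 against 2.74. In the Krt-type Gsta4, a transferase that clears lipid peroxides, stood at 249 CPM against 95.2. The defence list as a whole was mixed in the Krt-type, with 2 of 10 higher, 3 lower and a median of -0.28. Within clusters 7 and 12 both higher ones, Wfdc2 and Mal, and 1 of the 3 lower ones, Cxcl2, remained past 2-fold. Without the top barcodes Wfdc2 remained higher and Defb1 and Cxcl2 lower.

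The 35 members with both Psca and Krt5/Krt14 were set beside the higher of the wider groups for each gene. The 39 other barcodes with both were not compared, so whether the levels below are particular to members was not tested. Of 6328 genes, 69, 1.09%, were at least 2-fold above both. With both cuts passed, Psca stood at 2239 CPM, Krt5 at 577 and Krt14 at 175, whereas Apoe stood at 478 CPM against 5704 in wider Krt5/Krt14-rich barcodes. Grhl3 stood at 71.0 CPM (57.1 to 87.1) against 3.41 and 7.76 in the wider groups, and 21 of the 35 had a UMI of it. Igfbp3 stood at 254 CPM against 49.0 and 54.5, and the aldehyde dehydrogenase Aldh3a1 at 99.8 against 3.77 and 17.6. Ivl was found in 22 of the 35, with a median of 2 UMIs and a highest value of 124, and stood at 398 CPM. Pparg stood at 97.5 CPM against 25.7 and 13.6, and Lypd3, a Ly6-type protein of stratified epithelium, at 122 against 16.6 and 31.7. The axon guidance gene Slit3, at 158 CPM against 1.49 and 79.7, was found in 26 of the 35. Grhl3, Igfbp3, Aldh3a1, Pparg and Lypd3 are among the 12 with the largest ratio of genes seen in at least 25% of the 35 barcodes with at most 20% of their UMIs in 1. Apoe, Slit3 and Ivl were chosen after their values were seen, Psca, Krt5 and Krt14 belonged to the cuts, and 24.3% of the Ivl UMIs lay in 1 barcode.

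The 18 members with neither held few basal or Psca counts and were dominated by a few barcodes. Prol1, a salivary and lacrimal type secretory gene, stood at 4283 CPM, but 8 of the 18 had a UMI of it and the 5 highest held 99.8%. Pip (1334 CPM) and Smr2 (883 CPM), of the same kind, were found in 4 members each. Tm4sf1 was found in more of them, 12 of 18, at 1382 CPM, with 76.7% of its UMIs in the 5 highest. Clu stood at 4064 CPM, with a UMI in 77.8% of the 18, but the 5 highest held 90.1%.

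Clustering of all 3709 kept proximal barcodes gave 22 clusters, of which 11 held a member. Members made up at most 33.5% of any cluster. The clusters were built on the same genes, so their leading genes are a description. Cluster 1, led by Clca1, Cxcl17 and Krt4, held 63 members, 17.5% (13.8% to 21.9%) of its 359 barcodes. Cluster 5, led by Clca1, Crybg2 and Areg and with Ly6d among its top 10, held 54, 33.5% (26.3% to 41.4%) of 161. Cluster 12, led by Grp, Col17a1 and Aqp3, held 43 of 229, with 24 of the 35 members with both. Cluster 7, led by Krt14 and Krt17, held 38 of 533. The first 3 held 160 members, 71.7%. Of the wider Psca-rich barcodes, 338 lay in clusters 1 and 5, while 336 lay in cluster 0 and 260 in cluster 2, each of which held 5 members.

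**Figure D5:**
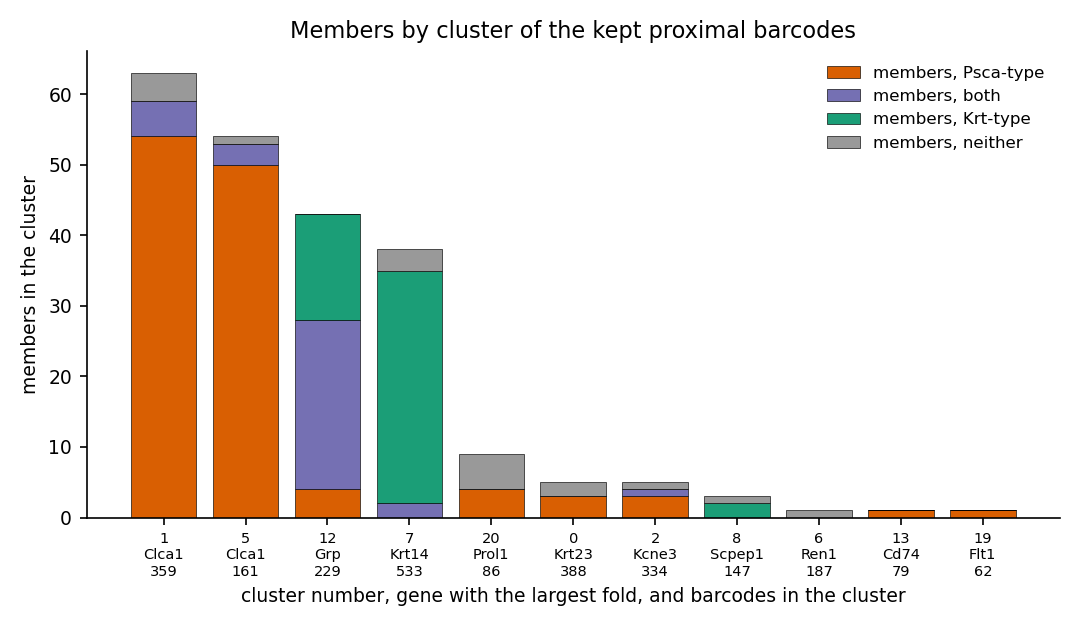
Number of members (vertical) in each of the 11 clusters that hold any (horizontal, with the leading gene and the number of barcodes of the cluster), coloured by set. Psca-type members lie mostly in clusters 1 and 5, members with both in cluster 12, and Krt-type members in clusters 7 and 12.

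Within their own clusters, fewer genes set Psca-type members apart. Within clusters 1 and 5, 104 Psca-type members against 338 wider Psca-rich barcodes had 16 of 5565 genes at least 2-fold higher, 0.288%, and 5 lower, 0.0898%. The mix of the 2 clusters differed, with 54 members in cluster 1 and 50 in cluster 5, against 234 and 104 wider Psca-rich barcodes. Areg and Ly6d are among the leading genes of cluster 5, and the part of this mix was not tested. Areg was still higher, at 654 CPM against 298 (log2 ratio 1.11), as were Mal at 311 against 148 (1.02), Gstm1 at 387 against 142 and Nccrp1 at 31.5 against 8.46. Ivl stood at 117 against 9.39 (2.71). Upk1a was at 615 against 343 (0.82), Krt4 at 669 against 421 (0.66), Krt15 at 3121 against 2020 (0.63) and Scel at 70.0 against 46.8 (0.49), all in the same direction and under 2-fold. Sbp was near level, at 722 against 802. The 5 lower genes were Bex1, Tstd1, Gas6, Fcgbp and Bex4, from a log2 ratio of -1.23 to -1.06. Of the 16 higher genes, 3 had over 50% of the members' UMIs in 1 barcode: Defb50, Msmb and the defensin Defb1. Depth differed, with median UMIs of 23178 and 18073, and its part was not tested.

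Within clusters 7 and 12, 48 Krt-type members against 567 wider Krt5/Krt14-rich barcodes had 47 of 5683 genes higher, 0.827%, and 10 lower, 0.176%. Of the 47, 13 had over 50% of the members' UMIs in 1 barcode, Tm4sf1 among them with 68.6%. Median UMIs were 16325.5 and 12678, and the part of depth was not tested. Krt4 stood at 124 CPM against 22.8 (2.03), Areg at 105 against 41.8 (1.15), Ivl at 39.0 against 8.98 (1.37) and Krt19 at 1055 against 410 (1.34). The lower side was led by Grp, gastrin-releasing peptide, at 17.9 CPM against 143 (-2.46), followed by Cxcl2, at 22.1 against 91.7 (-1.66), and Scpep1, at 61.1 against 186 (-1.46). Lgr5, a receptor of stem and progenitor cells, stood at 12.6 against 37.1 (-1.06). Of the 3 genes that remained in both types, Areg and Ivl were past 2-fold in both within-cluster comparisons, and Krt4 in the Krt-type only.

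Levels on either side of the threshold were compared for a few genes. At Ly6d of 3 UMIs, 27 members stood just inside, and 66 barcodes with 2 UMIs that met the other conditions stood just outside. Upk1a stood at 197 CPM inside and 207 outside, Krt15 at 1800 and 2017, Areg at 220 and 176, and Mal at 91.0 and 113. Others lay further apart, with Ivl at 51.8 and 81.1, Krt14 at 204 and 124, Aqp3 at 13.8 and 30.3 and Krt13 at 10.4 and 4.13. In the 123 members with 10 or more UMIs of Ly6d, Upk1a stood at 545 CPM, Krt15 at 4271, Areg at 695, Mal at 342 and Ivl at 243. The 100 members with 3 to 9 UMIs had 247, 2620, 208, 132 and 58.0 for Upk1a, Krt15, Areg, Mal and Ivl, at a median depth of 20862.5 against 21628 UMIs. Since Ly6d chose the members, these values are a description.

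Markers of other cell types were low in members except Pecam1, Gsn and Dcn. Of 8 endothelial markers 1 was at 0 in members, and nearly all of the summed 290 CPM was Pecam1 (284), while Cdh5 stood at 0.308 and Cldn5 at 0.308. Per member the endothelial sum had a median of 4 UMIs and a highest value of 90, and Pecam1 was as high in wider Psca-rich barcodes, at 366 CPM. Leukocyte markers had a median of 1 UMI and reached 678 in 1 member, and 4 members had 10 or more. In Psca-type members, 1 barcode held 93.0% of the UMIs of Cd74. The fibroblast list had a median of 10 UMIs per member, and 119 members had 10 or more, mostly of Gsn and Dcn. It summed to 2249 CPM in Krt-type members, of which the matrix gene Dcn was 1430, against 1486 CPM of Dcn in wider Krt5/Krt14-rich barcodes and 7.76 in Psca-type members. Smooth muscle markers summed to 22.0 CPM, neuroendocrine markers to 3.54, nerve and glia markers to 2.77 and red cell markers to 2.0. Seminal vesicle markers summed to 81.1 CPM, against 93.0 in Psca-rich barcodes. The alternative without other cell types used only Ptprc, Pecam1 and the collagen genes of the rule. The part of the other markers in the results was not tested.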

How the data were processed

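Single-cell RNA-seq was done on 2 prostate libraries, 1 per region. The deposited matrices hold UMI counts per gene and barcode, which the authors made with Cell Ranger 7.0.0 on mm10, per the submitters' processing notes. They list 32285 genes. The proximal library held 97817603 UMIs. All groups compared come from this 1 library, so there is no test, and precision is that of counting. The members and the 25 gene lists were chosen with earlier results of these data known.

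Counts were summed over the barcodes of a group and scaled to CPM. Genes with at least 20 CPM in either group were compared by the log2 ratio of CPM plus 10, leaving out genes used in the cuts. Genes named were the 12 highest and 12 lowest of each comparison (a UMI in at least 25% of barcodes of the higher group, at most 20% of UMIs in 1), the 12 highest over both comparison groups, and up to 4 of each list plus its most abundant. Genes outside this rule, among them Adh7, Ankrd22, Cenpf, Dsg3, Egfr, Gata3, Klf5, Krt6a, Krt18, Krt20, Ltf, Meis2, Mki67, Pip, Prol1, Smr2, Sprr3, Srgap1, Tgfa and Upk3b, were chosen after their values were seen. Thinning drew 2000 UMIs per barcode, and macrophage barcodes were those with at least 10 UMIs of C1q genes. Doublets were neither called nor removed. Some genes are not reported here. Gene positions and promoters came from RefSeq on GRCm38.p6. Alternatives varied the pseudocount, filters, rule, cuts, scaling and clustering, and those without the Pecam1 limit, in wider groups, without comparison barcodes of 3 or more Ly6d UMIs, within clusters or without the top barcode were chosen after seeing the data. The ratio and interval steps were tested on simulated data. Python 3.11.15, numpy 2.4.6, scipy 1.17.1, pandas 2.3.3, scanpy 1.11.5, igraph 0.11.9 and matplotlib 3.10.9 were used.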

Additional observations from a re-analysis of the deposited data

How the results depend on the processing

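No paired analysis was possible because all groups compared are barcodes of 1 library. Of the log2 ratios of named genes over all alternatives, 5338 moved by no more than their counting error, 1955 moved further and 26 reversed. Against Psca-rich barcodes the count of higher genes was 201 with a pseudocount of 1, 305 after thinning and 207 without other cell types, as defined above. That of lower genes was 62, 143 and 59, with 60 for members of at least 10 Ly6d UMIs. Without the Pecam1 limit the lower count was 69, and 1 list had a median of at most -0.5. In Psca-type members the higher count was 96, 172 and 116 under the same 3 settings, 102 at 10 Ly6d UMIs, 16 within clusters and 35 without the top barcode, and the lower count was 120, 220, 217, 117 and 5 within clusters. In Krt-type members the higher count was 96 and 559 for the pseudocount and thinning, 110 at 10 Ly6d UMIs, 187 with 3 UMIs of the other rule genes and 11 without the top barcode. Their lower count was 14 by the mean CPM of each barcode, 403 thinned, 72 at 10 Ly6d UMIs, 175 with 3 UMIs, 21 with cuts per 10000 UMIs, 20 without the deepest barcodes, 68 without other cell types, 67 with scaling free of abundant genes, 10 within clusters and 23 without the top barcode.

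There were 119 members at 5% mitochondrial UMIs, 123 at 10 Ly6d UMIs and 43 after thinning. Members with both made up 22.0% with lower cuts and 8.07% with cuts per 10000 UMIs, where those with neither made up 15.2%. The top 3 clusters held 92.4% at resolution 0.5. Upk1a was seen in 27.4% of members thinned to 1000 UMIs and 76.2% unthinned, and Areg in 27.8% and 74.9%. Ratios reversed against Psca-rich barcodes without the Pecam1 limit for Itgam (-0.56), Scin (-0.04), Defb50 (-1.53), Msmb (-2.88) and Defb1 (-0.46), without other cell types for Itgam (-0.47) and Cd74 (-0.02), and without the deepest barcodes for Tgm4 (0.13). Against Krt5/Krt14-rich barcodes they reversed without other cell types for Itgam (-0.28), Cxcl2 (-0.41) and Cd74 (-0.36), at 10 Ly6d UMIs for Cd74 (-0.34) and without the Pecam1 limit for Mme (-0.06). In Psca-type members Defb50 (2.09), Msmb (1.45), Tgm4 (0.29), Clca1 (-0.06), Cxcl17 (-0.07) and Cd74 (-0.34) reversed within clusters, and Cd74 also at 10 Ly6d UMIs (-0.13), with cuts per 10000 UMIs (-0.35) and without the top barcode (-0.22). In Krt-type members reversals were seen for Cldn10 (0.15 with cuts per 10000, 0.24 within clusters), Tm4sf1 (-0.14 at 10 Ly6d UMIs) and Scel (-0.07 thinned). Beyond settings that leave fewer barcodes or genes, the cause was not tested. Depth limits genes of a few UMIs, above all in the 50 Krt-type and 18 other members. The same holds for the counts after thinning to 2000 UMIs per barcode, where a few UMIs can reach 20 CPM.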
